A study of Arabidopsis thaliana with 8 samples.

Results

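The 10 genes described here write, maintain or remove DNA methylation in Arabidopsis thaliana. They are MET1 (AT5G49160), CMT2 (AT4G19020), CMT3 (AT1G69770), DRM2 (AT5G14620), DDM1 (AT5G66750), KYP (AT5G13960), ROS1 (AT2G36490), DME (AT5G04560), DML2 (AT3G10010) and DML3 (AT4G34060). They were chosen as a functional group and found by locus identifier, with no threshold on measured values but with earlier results of these data known, and make up 10 of the 36796 identifiers in the count table. All 10 had enough counts to be tested, among 20214 genes tested. RNA-seq of polyadenylated transcripts was made from whole Col-0 rosettes, with 4 wild-type libraries and 4 libraries of the genotype hta9 hta11, in which HTA9 and HTA11, genes for the histone variant H2A.Z, are mutated. Each library came from a pool of 5 plants that were 17 days old and had not bolted. The plants grew on soil at 22 °C with 16 h of light per day and were harvested 6 h after lights on. No other allele, transgene or treatment is given for either genotype, and the kind of the hta9 and hta11 mutations is not given in the labels.

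Plant DNA is methylated at cytosines in the CG, CHG and CHH contexts, where H is any base but G. MET1 copies CG methylation after replication, CMT3 maintains CHG methylation, and CMT2 methylates CHH and CHG sites in heterochromatin. DRM2 is the methyltransferase of RNA-directed DNA methylation, in which small RNAs guide methylation to matching loci. DDM1 is a nucleosome remodeller that gives the methyltransferases access to heterochromatin, and KYP is a histone H3 lysine methyltransferase whose mark is bound by CMT2 and CMT3. ROS1, DME, DML2 and DML3 are DNA glycosylases that excise 5-methylcytosine. ROS1 is the main demethylase of vegetative tissues, and its transcript is known to drop when methylation of its own promoter is lost. DME is best known for demethylation in the central cell and the vegetative cell of pollen. H2A.Z and DNA methylation are known to occupy largely separate parts of the Arabidopsis genome.

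The sequences upstream of ROS1 and DML3 are shown because these were the genes of the 10 whose wild-type and hta9 hta11 levels did not overlap in the counts as deposited. Each run gives the 250 bases before the annotated gene start, 5′ to 3′ on the gene's own strand, from RefSeq TAIR10.1. ROS1 lies on the minus strand and the run covers chr2:15314808-15315057, while DML3 lies on the plus strand and the run covers chr4:16313116-16313365. Capitals mark a match to an E2F-type motif. A shorter run of 30 bases, chr1:26253647-26253676 on the minus strand, shows the match in CMT3, which lies within the transcribed part at position 23 from the gene start.
ROS1 upstream: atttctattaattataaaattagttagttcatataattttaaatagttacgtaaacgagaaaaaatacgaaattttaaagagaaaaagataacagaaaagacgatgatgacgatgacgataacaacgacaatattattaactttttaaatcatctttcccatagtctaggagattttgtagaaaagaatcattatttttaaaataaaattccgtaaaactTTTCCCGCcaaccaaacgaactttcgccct
DML3 upstream: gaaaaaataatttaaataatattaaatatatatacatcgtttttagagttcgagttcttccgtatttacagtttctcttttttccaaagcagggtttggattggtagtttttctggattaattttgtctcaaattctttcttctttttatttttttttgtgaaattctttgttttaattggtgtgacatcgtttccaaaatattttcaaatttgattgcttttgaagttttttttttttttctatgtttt
CMT3 start: aaacccatcacTTTGGCGCttatgtgacgc
The E2F-type letters searched were TTTCCCGC, TTTGGCGC, TTTGCCGC and TTTCGCGC on both strands, in 300 bases from 250 before to 50 after each gene start. A match was found in 2 of the 10 genes, ROS1 and CMT3, and in 1.76% of 27443 promoters of protein-coding genes. In ROS1 the match TTTCCCGC began 30 bases before the gene start. The DML3 window held none of these letters. The telo-box letters AAACCCTAA, searched the same way, occurred in 0 of the 10 genes and in 3.6% of the 27443 promoters. These matches describe letters only, and binding was not measured.

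Library totals ran from 31611735 to 47467130 counts. HTA9 was at 103.9, 91.5, 99.8 and 86.0 CPM (counts scaled to a common library size) in wild-type libraries 1 to 4 and at 60.6, 14.8, 33.4 and 16.5 CPM in hta9 hta11 libraries 1 to 4, so libraries 1 and 3 of the mutant held more of it than libraries 2 and 4. It fell by 1.60 on the log2 scale (SE 0.38, adjusted p = 0.0457 in edgeR's quasi-likelihood test), and this call was lost in 10 of 20 other fits. Without hta9 hta11 libraries 1 and 3 it fell by 2.61. The libraries left out were those with the most HTA9 in the mutant. The larger fall was thus set by that choice and is no test of HTA9. HTA11 was at 38.5 to 54.1 CPM in wild-type plants and at 26.0, 2.98, 14.1 and 3.60 CPM in the mutant (log2 fold change -1.93, SE 0.56, adjusted p = 0.0924). A mean over the 4 mutant libraries therefore averages libraries that differ in the targeted transcripts, and the reason for that difference was not tested. HTA8, a further H2A.Z gene, was at 16.4 ± 1.83 and 18.0 ± 3.0 CPM (SD, n = 4 each; adjusted p = 0.665 in edgeR). The libraries also differed in the balance of long and short genes. Each gene was centred on its mean log2 level over all libraries. The median of 1822 genes with at least 3279 exon bases was taken, minus that of 1827 genes with at most 951. This long-minus-short value was -0.49, 0.24, -0.19 and 0.21 in wild-type libraries 1 to 4. In hta9 hta11 libraries 1 to 4 it was -0.29, 0.32, 0.26 and -0.09. Each genotype thus had 2 libraries below 0 and 2 above 0. MET1, CMT2, ROS1, DME, DML2 and DML3 have 4050 to 7191 exon bases and belong to the long genes, so values adjusted for this trend, or taken within the libraries below or above 0, are given beside the values as deposited.

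As deposited, ROS1 and DML3 were the members with higher levels in every hta9 hta11 library than in every wild-type library. None of the 10 genes passed an adjusted p of 0.05 in edgeR, against 3.74% of all genes tested, and none of the 10 rose, against 2.49% of all genes. At an unadjusted p under 0.05 there were 2 of the 10, ROS1 and DML3, against 18.0% of all genes. The share of genes higher in all 4 mutant libraries than in all 4 wild-type libraries was 2 of 10, against 6.23% of all genes. DESeq2 passed 2 of the 10, again ROS1 and DML3, among 1527 genes that it passed in all. It started from all genes with a count rather than the 20214, and the share it passed was not computed. In limma-voom 0 of the 10 passed, against 726 of the 20214 genes tested. With the length trend of each library as an offset, an alternative chosen after the data were seen, edgeR passed the same 2 genes, both upward, against 5.93% of all genes in either direction. The median log2 fold change of the 10 was 0.07, against 0 over all genes and 0.04 over the 4552 genes with at least 2441 exon bases, and 0.02 with the length offset. Above 0 were 8 of the 10, or 80%, among them DML2 at 0.00 after rounding, against 49.7% of all genes. With the length offset MET1 (-0.13), CMT3 (-0.10) and DML2 (-0.07) were below 0, DRM2 was at 0.00 after rounding, and the others were above 0. The share above 0 among long genes alone was not computed.

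**Figure D1:**
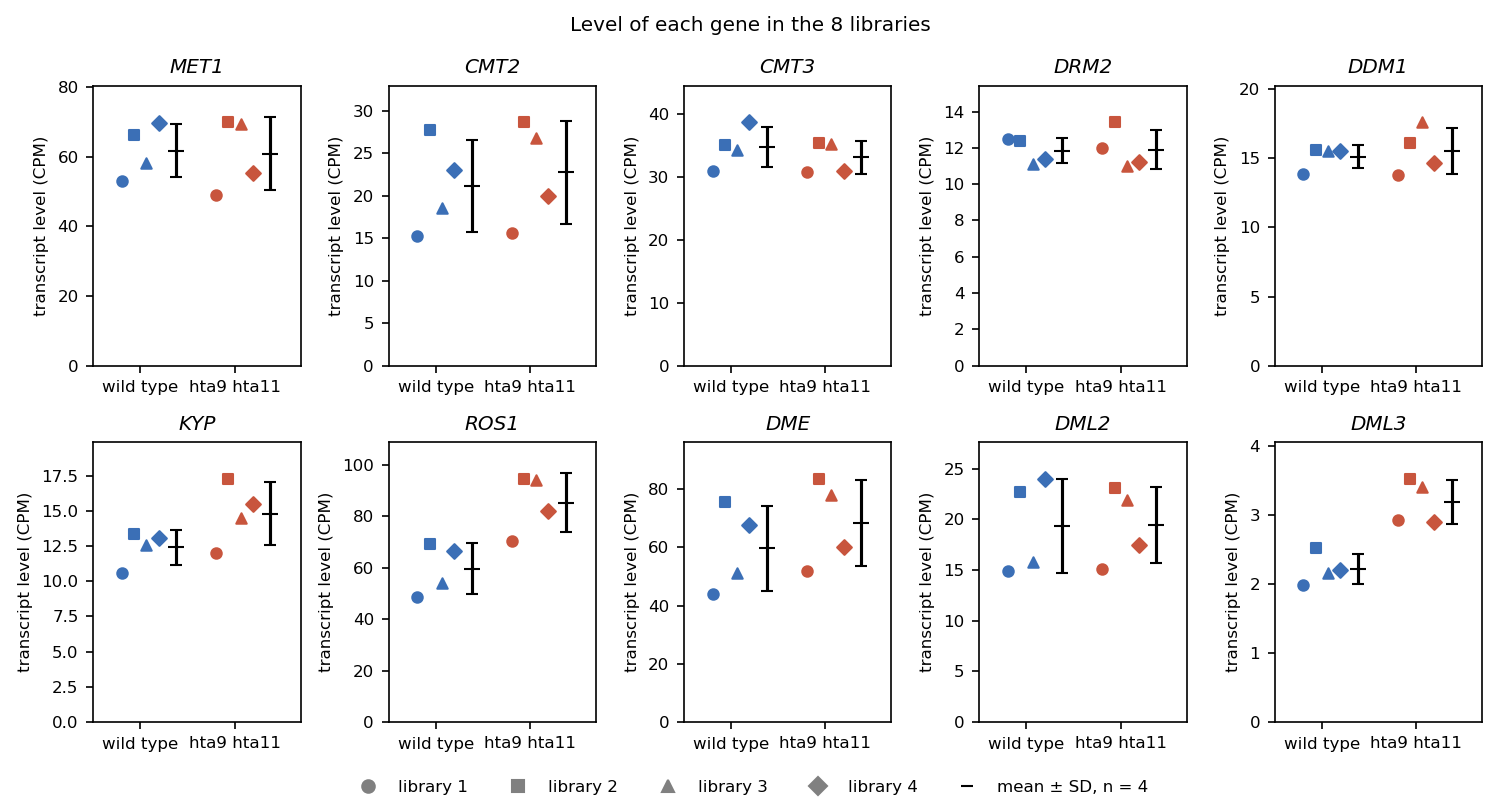
Transcript level in CPM of each of the 10 genes in the 4 wild-type (blue) and 4 hta9 hta11 (red) libraries. Symbols give the library number and bars the mean ± SD over 4 libraries; the y axes start at 0 and differ between genes. The ROS1 and DML3 points of the 2 genotypes do not overlap, and those of the other 8 genes do.

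ROS1 (chr2:15307907-15314807, minus strand, 21 exons, 4182 coding bases) was at 48.7, 69.4, 54.0 and 66.6 CPM in wild-type libraries 1 to 4. In hta9 hta11 libraries 1 to 4 it was at 70.4, 94.7, 94.3 and 82.2 CPM. The lowest mutant library stood just above the highest wild-type library, so the groups were separate but close. The means were 59.7 ± 9.93 and 85.4 ± 11.6 CPM (SD, n = 4 each). The log2 fold change was 0.52 (SE 0.13, 95% interval 0.22 to 0.81), with an unadjusted p of 0.00293 and an adjusted p of 0.0639 in edgeR, where it ranked 925 of 20214 genes by p. Most of the spread within a genotype followed the length trend. With that trend as an offset, ROS1 was at 60.3, 61.4, 60.4 and 62.0 CPM in wild-type plants and at 81.0, 79.6, 82.9 and 85.6 CPM in hta9 hta11. The coefficient of variation among the 4 wild-type libraries was 16.6% as deposited and 1.3% after the adjustment. Counting error alone is 2.41% at the lowest ROS1 count, so 1.3% cannot be taken as the spread between pools. Among the long genes of the 10 the adjusted wild-type value ran from this 1.3% to 12.8% in CMT2. On the adjusted scale ROS1 rose by 0.43 on the log2 scale (SE 0.05, 95% interval 0.32 to 0.54, adjusted p = 0.00192 in edgeR). It was 1.35-fold higher in the mutant on that scale.

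DML3 (chr4:16313366-16319426, plus strand, 21 exons, 3318 coding bases), a relative of ROS1, was the least abundant of the 10 genes per kilobase of exon. It was at 1.99, 2.52, 2.16 and 2.21 CPM in wild-type libraries 1 to 4 and at 2.93, 3.53, 3.41 and 2.90 CPM in hta9 hta11 libraries 1 to 4. All 4 mutant libraries lay above all 4 wild-type libraries. These values rest on 69 to 104 counts in wild-type plants and 108 to 142 counts in the mutant, so counting error alone is 12% at the lowest count. The means were 2.22 ± 0.221 and 3.19 ± 0.321 CPM (SD, n = 4 each). The difference on the log2 scale was 0.52 (SE 0.13, 95% interval 0.22 to 0.82), with an unadjusted p of 0.0029 and an adjusted p of 0.0637 in edgeR. With the length trend as an offset the levels were 2.37, 2.28, 2.35 and 2.08 CPM in wild-type plants and 3.29, 3.08, 3.08 and 3.0 CPM in the mutant. DML3 rose by 0.46 on the log2 scale in that fit (SE 0.11, 95% interval 0.21 to 0.71, adjusted p = 0.041 in edgeR).

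DME (chr5:1309099-1318520, plus strand, 7191 exon bases) is the longest of the 10 genes in exon length. It was at 43.9, 75.7, 51.3 and 67.6 CPM in wild-type libraries 1 to 4 and at 52.0, 83.6, 78.1 and 60.3 CPM in hta9 hta11 libraries 1 to 4. The groups overlapped over most of their range, and in each genotype the 2 libraries with a positive long-minus-short value were the 2 highest. On the log2 scale the fold change was 0.20 (SE 0.19, 95% interval -0.23 to 0.62, adjusted p = 0.651 in edgeR). With the length trend as an offset the levels were 59.1, 63.6, 60.9 and 61.3 CPM in wild-type plants and 63.6, 64.5, 64.7 and 64.0 CPM in the mutant. On that scale every mutant library lay above every wild-type library, by a gap smaller than the rounding shown. The difference was then 0.07 on the log2 scale (SE 0.05, adjusted p = 0.444 in edgeR).

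DML2 (chr3:3081735-3088550, minus strand) was at 14.9, 22.7, 15.8 and 24.0 CPM in wild-type libraries 1 to 4. In hta9 hta11 libraries 1 to 4 it was at 15.1, 23.1, 21.9 and 17.5 CPM. The ranges were nearly the same, and the means were 19.4 ± 4.67 and 19.4 ± 3.76 CPM (SD, n = 4 each). The log2 fold change was 0.00 (SE 0.18, 95% interval -0.41 to 0.41, adjusted p = 0.998 in edgeR), an interval that leaves room for a difference in either direction. Among the 4 glycosylases, ROS1 and DML3 thus stood higher in every mutant library as deposited, though neither passed in the main fit. DML2 and DME did not pass in any fit. Differences between the fold changes of these genes were not tested.

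**Figure D2:**
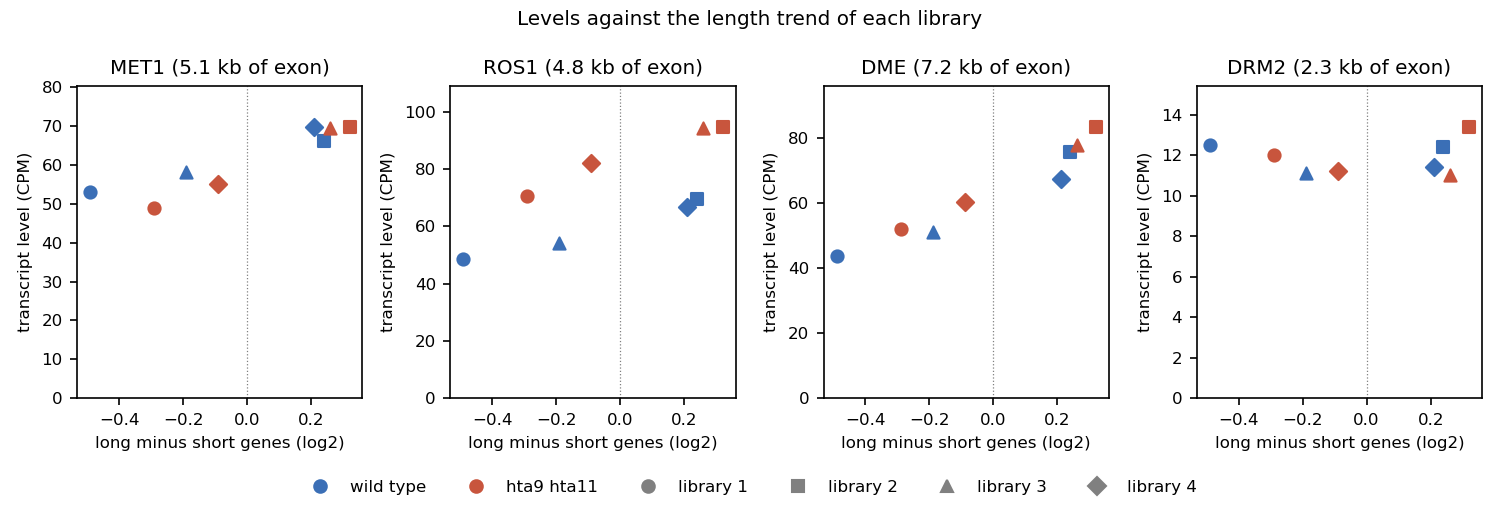
Level in CPM of MET1, ROS1, DME and DRM2 (y axis, starting at 0) against the long-minus-short value of each library on the log2 scale (x axis), for 4 wild-type (blue) and 4 hta9 hta11 (red) libraries. MET1 and DME points of both genotypes lie along one rising band, ROS1 points lie along 2 rising bands with the mutant above, and DRM2, with 2331 exon bases, shows no such slope.

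Within the 2 wild-type and 2 mutant libraries whose long-minus-short value was below 0, ROS1 was at 48.7 to 54.0 CPM in wild-type plants and 70.4 to 82.2 CPM in hta9 hta11, a ratio of means of 1.49. In the libraries above 0 it was at 66.6 to 69.4 CPM and 94.3 to 94.7 CPM, a ratio of 1.39. DML3 had ratios of 1.41 below 0 and 1.47 above 0, with no overlap in either class. For DME the ratios were 1.18 and 1.13, also with no overlap in either class. MET1 had ratios of 0.938 and 1.02 and overlapped in both. The classes do not equalise the length trend, since the long-minus-short values were -0.49 and -0.19 in the wild type against -0.29 and -0.09 in the mutant below 0, and 0.24 and 0.21 against 0.32 and 0.26 above 0. In both classes the mutant values were on average the higher, and with the offset DME differed by 1.05-fold only. With 2 libraries per genotype such separation is common: 22.5% of all genes tested were higher in both mutant libraries below 0, against 3 of the 10, and 24.8% above 0, against 5 of the 10.

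MET1 (chr5:19932114-19938470, plus strand, 12 exons, 4605 coding bases), the CG methyltransferase, was at 53.0, 66.1, 58.1 and 69.7 CPM in wild-type libraries 1 to 4. In hta9 hta11 libraries 1 to 4 it was at 49.0, 69.8, 69.4 and 55.2 CPM. The groups covered the same range, and all 4 libraries above 0 in the long-minus-short value, of either genotype, were higher than all 4 below 0. The means were 61.7 ± 7.58 and 60.8 ± 10.4 CPM (SD, n = 4 each), and the log2 fold change was -0.02 (SE 0.13, 95% interval -0.31 to 0.27, adjusted p = 0.952 in edgeR). With the length trend as an offset MET1 was at 66.3, 58.1, 65.5 and 64.7 CPM in wild-type plants and 56.8, 58.0, 60.6 and 57.6 CPM in the mutant. The difference on that scale was -0.13 (SE 0.06, adjusted p = 0.229 in edgeR), and wild-type library 2 overlapped the mutant.

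CMT3 (chr1:26248118-26253687, minus strand, 21 exons) was at 31.0, 35.1, 34.3 and 38.7 CPM in wild-type libraries 1 to 4. In hta9 hta11 libraries 1 to 4 it was at 30.8, 35.5, 35.3 and 31.0 CPM. The groups overlapped, and the log2 fold change was -0.07 (SE 0.09, 95% interval -0.27 to 0.13, adjusted p = 0.746 in edgeR). CMT2 (chr4:10414428-10421265, plus strand, 23 exons) varied most among libraries of 1 genotype, from 15.2 to 27.7 CPM in wild-type plants and from 15.6 to 28.6 CPM in the mutant. Its log2 fold change was 0.10 (SE 0.22, 95% interval -0.38 to 0.58, adjusted p = 0.851 in edgeR). Its coefficient of variation was 25.8% in wild-type plants and 26.5% in hta9 hta11, and its highest library was library 2 in both genotypes. DRM2 (chr5:4715105-4718704, minus strand, 10 exons) was at 12.5, 12.4, 11.1 and 11.4 CPM in wild-type plants and 12.0, 13.4, 11.0 and 11.2 CPM in the mutant. It was among the steadiest of the 10, with a wild-type coefficient of variation of 5.98% and a log2 fold change of 0.01 (SE 0.09, 95% interval -0.19 to 0.21, adjusted p = 0.977 in edgeR).

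DDM1 (chr5:26648897-26653191, plus strand, 16 exons) was at 13.9, 15.6, 15.5 and 15.5 CPM in wild-type libraries 1 to 4. In hta9 hta11 libraries 1 to 4 it was at 13.8, 16.1, 17.6 and 14.7 CPM. The groups overlapped, and library 1 was the lowest in both. Its log2 fold change was 0.04 (SE 0.09, 95% interval -0.16 to 0.24, adjusted p = 0.87 in edgeR). KYP (chr5:4501362-4506250, plus strand, 15 exons) was at 10.6, 13.4, 12.6 and 13.1 CPM in wild-type plants and at 12.0, 17.3, 14.5 and 15.5 CPM in the mutant. Mutant libraries 2 to 4 lay above every wild-type library, and library 1 lay within the wild-type range. The log2 fold change of KYP was 0.26 (SE 0.12, 95% interval -0.01 to 0.53), with an unadjusted p of 0.0596 and an adjusted p of 0.302 in edgeR. KYP shares 60 exonic bases with AT5G13970 on the opposite strand, and the strand setting of the counting is not given in the sources used here, so a small part of its counts is uncertain.

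**Figure D3:**
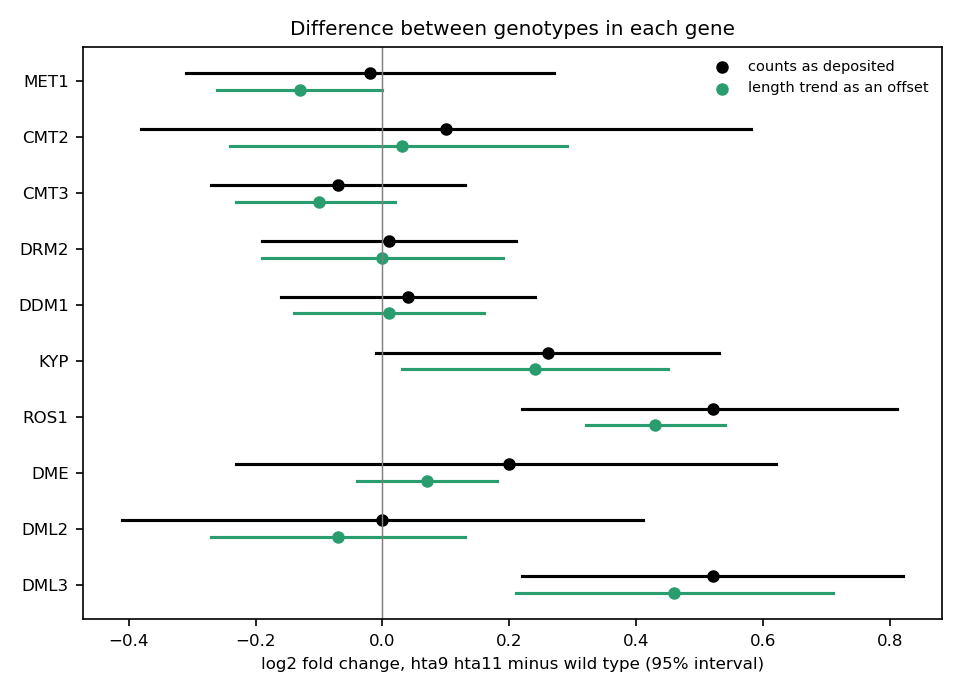
Log2 fold change of hta9 hta11 minus wild type for each of the 10 genes, as a point with its 95% interval from edgeR, for the counts as deposited (black) and with the length trend of each library as an offset (green). Both ROS1 intervals and both DML3 intervals lie above 0; the offset narrows the ROS1 interval from 0.22 to 0.81 to 0.32 to 0.54.

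Per kilobase of exon, which allows levels of different genes to be set side by side, ROS1 and MET1 led in the wild type with 12.4 ± 2.06 and 12.2 ± 1.50 CPM per kb (SD, n = 4 each). CMT3 followed with 11.3 ± 1.03 and DME with 8.29 ± 2.03 CPM per kb, and the ranges of neighbours in this order overlapped. DDM1, DRM2, CMT2, KYP and DML2 lay between 4.41 and 5.47 CPM per kb, with overlapping ranges. DML3 stood apart at 0.547 ± 0.0545 CPM per kb, below every value of the other 9. In hta9 hta11, ROS1 was at 17.7 ± 2.40 CPM per kb, with its lowest library at 14.6, above the highest MET1 library at 13.8. The order of ROS1 over MET1 was therefore clear in the mutant and not in the wild type.

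Ratios within a library set pairs of genes against each other without the library total. ROS1 divided by MET1 was 0.919, 1.05, 0.93 and 0.956 in wild-type libraries 1 to 4 and 1.44, 1.36, 1.36 and 1.49 in hta9 hta11 libraries 1 to 4. The wild-type values sat near 1 and all 4 mutant values lay above them, with means of 0.964 ± 0.0595 and 1.41 ± 0.0644 (SD, n = 4 each). ROS1 divided by DME was 0.917 to 1.11 in wild-type plants and 1.13 to 1.36 in the mutant, which were separate by a narrow gap. DME divided by MET1 overlapped, at 0.956 ± 0.139 and 1.12 ± 0.0581 (SD, n = 4 each). MET1 divided by CMT3 overlapped too, at 1.77 ± 0.0885 and 1.82 ± 0.179 (SD, n = 4 each). These ratios are descriptions, given without a test.

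**Figure D4:**
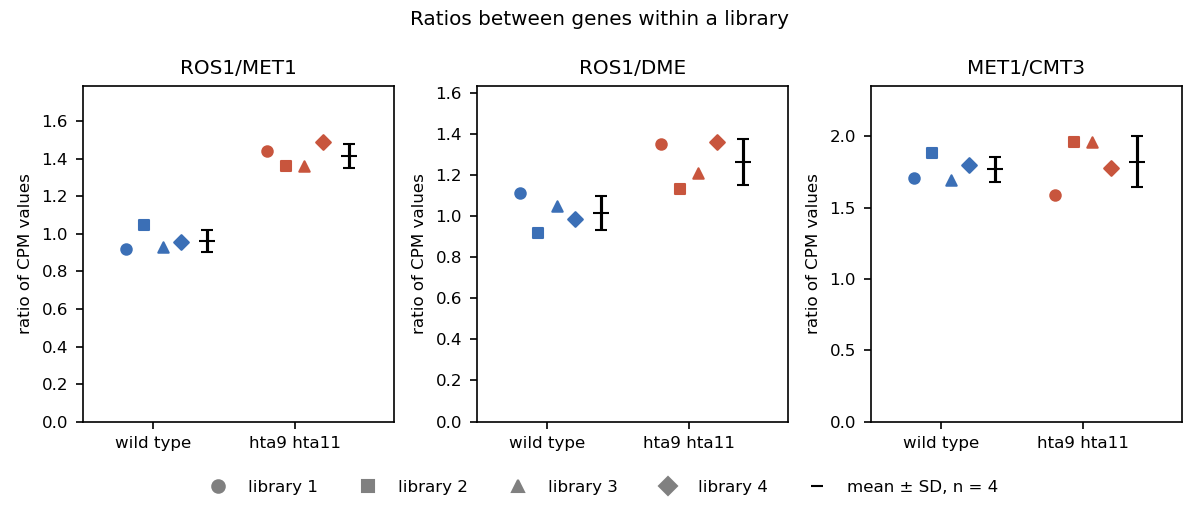
Ratio of CPM values between pairs of genes within each library (y axis from 0), for 4 wild-type (blue) and 4 hta9 hta11 (red) libraries, with the mean ± SD of each genotype. ROS1/MET1 runs from 0.919 to 1.05 in wild-type plants and from 1.36 to 1.49 in the mutant, while MET1/CMT3 overlaps.

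Genes that work with the 10 were taken from lists of pathway members. Of 14 partners of methylation maintenance, 0 passed in edgeR, with a median log2 fold change of -0.07. The most abundant were HOG1, an enzyme that removes the by-product of methylation, at 933.3 ± 20.5 and 964 ± 26.8 CPM (SD, n = 4 each; log2 fold change 0.05, adjusted p = 0.74 in edgeR), and AT1G06760 (0.03, adjusted p = 0.908). Of 21 genes of RNA-directed DNA methylation, 0 passed, with a median of 0.11 and a range of -0.16 to 0.69. AGO4, the small RNA binding protein of that pathway, was at 48.9 ± 2.43 CPM in wild-type plants and 55.3 ± 6.25 CPM in hta9 hta11 (SD, n = 4 each; log2 fold change 0.18, adjusted p = 0.344 in edgeR). KTF1, which binds AGO4, had a log2 fold change of 0.11 (adjusted p = 0.683). Of 12 partners of demethylation 0 passed, with a median of 0.03. LIG1, a DNA ligase that seals the repaired strand, had a log2 fold change of 0.06 (adjusted p = 0.788 in edgeR), and IDM1, an acetyltransferase that guides ROS1 to its targets, had 0.17 (adjusted p = 0.555). At an unadjusted p under 0.05 these lists held 1, 2 and 1 genes, or 7.14%, 9.52% and 8.33%, against 18.0% of all genes tested. In these 3 lists limma-voom passed 0 genes, and DESeq2 passed 1 gene of RNA-directed DNA methylation.

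That gene was AT1G05490, named chromatin remodeling 31 in RefSeq and chosen here after its values were seen. It was at 1.48, 1.43, 0.97 and 1.51 CPM in wild-type libraries 1 to 4 and at 1.86, 2.31, 2.08 and 2.45 CPM in hta9 hta11 libraries 1 to 4. All 4 mutant libraries lay above the wild type, and the log2 difference was 0.69 (SE 0.18, adjusted p = 0.0673 in edgeR and 0.0244 in DESeq2). Among the relatives of the methyltransferases 2 of 6 were tested and 0 passed in edgeR, with 1 in DESeq2. At an unadjusted p under 0.05 there was 1, against 18.0% of all genes tested. DRM3, a relative of DRM2, was at 21.9 ± 2.21 and 23.1 ± 1.72 CPM (SD, n = 4 each; log2 fold change 0.08, adjusted p = 0.728 in edgeR). DMT2 (AT4G14140), a relative of MET1, was at 0.284, 0.0484, 0.135 and 0.288 CPM in wild-type plants and at 0.296, 0.795, 0.93 and 0.565 CPM in the mutant. It rests on 2 to 10 counts in a wild-type library and 14 to 32 in a mutant library, and the log2 difference was 1.78 (SE 0.50, adjusted p = 0.0859 in edgeR). The groups were separate by a narrow gap as deposited. With the length trend as an offset they overlapped, at 0.351 CPM in wild-type library 1 and 0.34 CPM in hta9 hta11 library 1. The adjusted p was then 0.0727 in edgeR. AT3G48425, in the list of demethylation partners and chosen after its values were seen, went the other way, at 7.92 to 8.55 CPM in wild-type plants and 6.86 to 7.53 CPM in the mutant (log2 fold change -0.20, adjusted p = 0.23 in edgeR). DRM1, a close relative of DRM2 named outside the rule, had at most 2 counts in a wild-type library and at most 7 in a mutant library and was not tested.

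Transcripts known to respond to DNA methylation were listed as well, and 3 of 6 had enough counts to be tested, of which 0 passed in edgeR, 0 at an unadjusted p under 0.05 and 0 in DESeq2 or limma-voom. BNS was at 8.40 ± 1.93 and 8.21 ± 1.74 CPM (SD, n = 4 each; log2 fold change -0.03, adjusted p = 0.952 in edgeR), and EPF2 had a log2 fold change of 0.09 (adjusted p = 0.749). FWA and SDC, too low to be tested, were named outside the rule. FWA, a gene kept silent by promoter methylation, had 0 counts in all 4 wild-type libraries and 1, 1, 0 and 3 counts in hta9 hta11 libraries 1 to 4. SDC, silenced by non-CG methylation, had 2 to 6 counts in wild-type plants and 3 to 7 in the mutant. QQS, whose level is known to vary with methylation of its locus, was at 52.2, 61.7, 48.1 and 40.4 CPM in wild-type plants and at 37.0, 1.89, 23.0 and 0.968 CPM in hta9 hta11. Every mutant value was under every wild-type value, far under in libraries 2 and 4, which are also those with the least HTA9 and HTA11. The log2 fold change of QQS was -1.68 (SE 0.81, adjusted p = 0.312 in edgeR). Without hta9 hta11 libraries 1 and 3, an alternative taken up with the unequal HTA9 levels known, QQS fell by 5.14 on the log2 scale (adjusted p = 0.000118 in edgeR). The libraries left out by that fit were also those with the most QQS in the mutant. The larger fall was thus set by that choice and is no test of QQS. In that fit the ROS1 difference was 0.57 on the log2 scale (SE 0.15, adjusted p = 0.0849 in edgeR) and DML3 0.53 (adjusted p = 0.137).

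**Figure D5:**
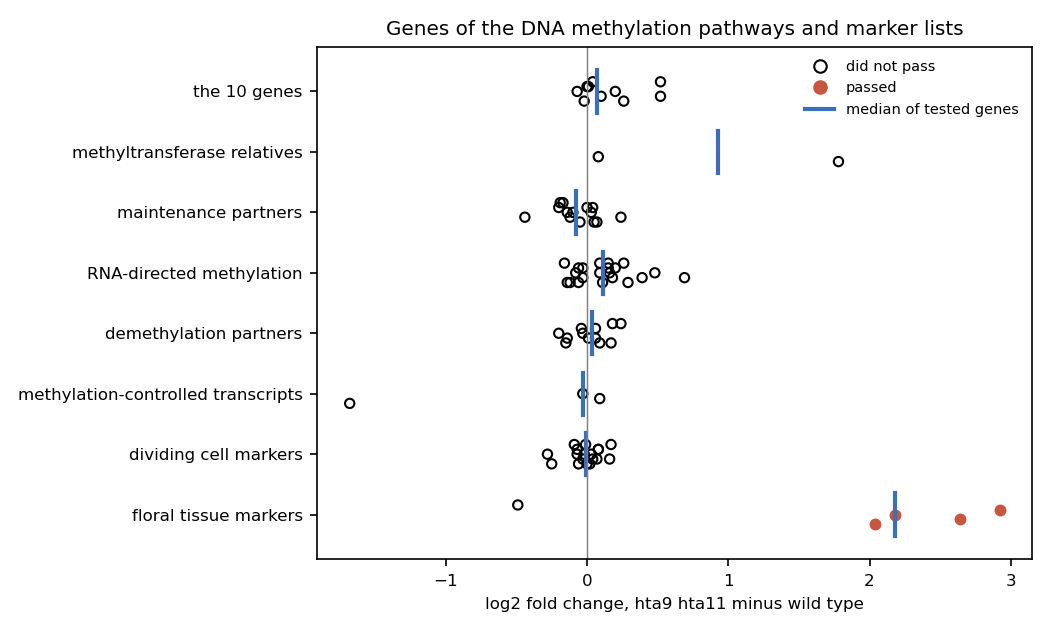
Log2 fold change of hta9 hta11 minus wild type for each tested gene of the lists, with filled points for genes that passed an adjusted p of 0.05 in edgeR and blue bars for the median of each list. Among these lists 4 floral tissue markers passed, and 0 genes of the methylation and demethylation lists.

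Markers of tissues that a rosette can hold were measured beside the 10 genes, since several of the 10 are known to be high in dividing cells or reproductive tissue. In bulk samples fewer cells of a type and less RNA per cell cannot be told apart. Of 18 markers of dividing cells 0 passed in edgeR, DESeq2 or limma-voom. At an unadjusted p under 0.05 there were 2, or 11.1%, against 18.0% of all genes tested. Their summed level over the 18 was 379.5 to 427.8 CPM in wild-type plants and 366.1 to 434.9 CPM in hta9 hta11, a ratio of means of 0.991. The most abundant of them, TSO2 and KNOLLE, had log2 fold changes of -0.01 and -0.02 (adjusted p = 0.963 and 0.939 in edgeR). Of 5 floral tissue markers 4 rose, against 2.49% of all genes tested. AP1 was at 2.04 on the log2 scale (adjusted p = 0.0159 in edgeR), AP3 at 2.64 (adjusted p = 0.00583), PI at 2.18 (adjusted p = 0.0348) and SEP3 at 2.92 (adjusted p = 0.000846). The PI groups overlapped, with 0.482 CPM in wild-type library 1 and 0.465 CPM in hta9 hta11 library 3. In a wild-type library AP3 had 5 to 9 counts and PI 5 to 17. AG, chosen after its values were seen, had a log2 fold change of -0.49 (adjusted p = 0.301). The summed level of the 5 was 2.61 to 3.09 CPM in wild-type plants and 7.13 to 14.8 CPM in the mutant. Of 5 rosette leaf markers 0 passed in edgeR. At an unadjusted p under 0.05 there were 3, all lower in the mutant, against 18.0% of all genes tested in either direction. The 5 leaf markers summed to 43860 to 52950 CPM in wild-type plants and 39800 to 46460 CPM in the mutant. RBCS1A and LHCB1.3, the most abundant of them, had log2 fold changes of -0.12 and -0.18 (adjusted p = 0.426 and 0.462 in edgeR). The part of these markers in the ROS1 and DML3 values was not tested.

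The genes whose pattern over the 8 libraries lay closest to ROS1, by the root mean square difference of centred log2 CPM, were AT2G23300 at 0.05 and EDA18 at 0.06, with AT2G27060 and CRK21 both at 0.08. This measure includes the difference between the genotypes, so genes picked by it share the direction of ROS1 or DML3 by choice. Their fold changes are therefore no separate result. The mismatch repair gene MSH3 lay at 0.07, with a log2 fold change of 0.76 (adjusted p = 0.105 in edgeR). Closest to DML3 were HSFB4 at 0.05, which rose by 0.42 on the log2 scale (adjusted p = 0.0383 in edgeR), and KAN at 0.06, whose log2 fold change was 0.41 (adjusted p = 0.0784). AT5G28919, DCF and AT5G49170 lay at 0.06 as well, and of these DCF rose, by 0.42 on the log2 scale (adjusted p = 0.0223 in edgeR).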

How the data were processed

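RNA was measured in 8 libraries of whole rosettes. The authors' deposited values are whole-number counts for 36796 gene identifiers in 1 table, of which all 8 value columns were used (0 left out). The submitters' processing notes name the build TAIR10 and the tools HISAT2 2.2.1, fastp 0.23.2, SAMtools 1.17, limma and DESeq2. The kit was directional, per the labels' protocols. Not given in the sources used here are the program used for counting, the strand setting and the handling of multi-mapping reads. RefSeq TAIR10.1 gave gene positions, names and sequences and names 87 of the 100 listed genes; the 13 others are given by identifier or by the symbol in common use.

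In edgeR 4.0.16 under R 4.3.3, filterByExpr left 20214 genes, and TMM scaling was used. Genotype was tested with edgeR's quasi-likelihood F test on all 8 libraries (2-sided); p-values were adjusted by Benjamini-Hochberg over all genes tested, with 0.05 as the threshold. CPM values use TMM-scaled library sizes. The code was checked on artificial counts. The members and lists were chosen with earlier results of these data known. The rule for named genes took all 10 members, the targeted genes, up to 4 genes per list that passed or the 2 most abundant where none did, and the 5 genes closest in pattern to each of ROS1 and DML3. Genes named outside it, chosen after their values were seen, were DRM1, EPF2, FWA, SDC, NRPE1, AG, AT1G05490 and AT3G48425.

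The replicates are pools of separate plants. The protocol text speaks of fewer replicates than the 4 the labels list. Libraries of 1 genotype differed with 12.5 to 45.3 chi-square units per degree of freedom, so none was counted as a repeat. As alternatives, upper-quartile and RLE scaling, no filter, a stricter filter of 1 CPM in 4 libraries, the replicate number as a block, DESeq2 1.42.0, limma-voom in limma 3.58.1, and the omission of each library were run. The fit without hta9 hta11 libraries 1 and 3 was taken up with their HTA9 levels known. Chosen after the data were seen were the length trend of each library as an offset (a lowess of the deviation from the mean on log10 exon length), the sign of the long-minus-short value as a block, and fits without wild-type libraries 1 and 2 or without both libraries 1.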

Additional observations from a re-analysis of the deposited data

Results flagged for a closer look

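DDM1 in wild-type library 1 stood at 13.9 CPM, while the other 3 wild-type libraries lay at 15.5 to 15.6 CPM; the gap took 0.958 of the group's range, above Dixon's critical value for 4 samples. It was the 1 case among 20 groups examined (10 genes in 2 genotypes), and chance gives such a case in about 1 of 20 groups. Library 1 also had the lowest long-minus-short value of the wild type, -0.49. The part of that value in the DDM1 level was not tested.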

How the results depend on the processing

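ROS1 and DML3 were higher in hta9 hta11 under all 20 alternatives, with log2 fold changes of 0.43 to 0.60 and 0.46 to 0.59. ROS1 passed in 7 of the 20 (adjusted p 0.00147 to 0.183) and DML3 in 4 (0.0235 to 0.194), so whether they pass depends on the setting. Both passed with upper-quartile scaling (0.54 and 0.55, adjusted p = 0.0441 and 0.0494 in edgeR), DESeq2 (0.51 and 0.51), the length trend as an offset (0.43 and 0.46) and the length class as a block (0.52 and 0.52). ROS1 alone passed without both libraries 1 (0.51), without hta9 hta11 library 1 (0.60, adjusted p = 0.0264) and with the replicate number as a block (0.52, adjusted p = 0.0277). The number of members that rose was accordingly 2, 2, 2 and 2 in the first 4 of these fits and 1 in the others. Of the 20214 genes tested, 552 rose with upper-quartile scaling, 730 with the length offset, 1057 with the length class as a block and 509 with the replicate number as a block. In DESeq2 869 rose and without both libraries 1 it was 533, out of other sets of genes. For the fit without hta9 hta11 library 1 only the range over all omissions of 1 library is given, 170 to 710 genes that rose. Same-numbered libraries did not deviate together in every pair (correlations 0.55, 0.5, -0.35 and -0.3). The positive values joined libraries of the same length class and the negative values libraries of opposite classes. Whether same-numbered pools were grown or harvested together cannot be told from these values.

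Fold changes near 0 changed sign: DML2 was 0 under RLE scaling, no filter and DESeq2, -0.07 with the length offset and -0.04 without wild-type libraries 1 and 2. MET1 was 0 with upper-quartile scaling and without both libraries 1, and 0.02 without hta9 hta11 libraries 1 and 3. DDM1 was 0 without wild-type libraries 1 and 2. Leaving out 1 library at a time gave MET1 -0.10 to 0.07, CMT2 -0.03 to 0.26, DRM2 -0.06 to 0.04, DDM1 -0.03 to 0.09 and DML2 -0.11 to 0.12. KYP and DME stayed above 0 and CMT3 below 0 in all 20.

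Changed genes numbered 757 (504 higher, 253 lower) and became 1527 in DESeq2 (869 higher, 658 lower), 1198 with the length offset (468 lower), 1985 with the length class as a block (1057 higher, 928 lower) and 5 without wild-type libraries 1 and 2 (3 higher, 2 lower). The other fits on 6 libraries gave 929 without hta9 hta11 libraries 1 and 3 and 864 without both libraries 1. These fits leave out other libraries, and the reason for the fall to 5 was not tested. HTA9 lost its call under upper-quartile scaling (adjusted p = 0.0504), the stricter filter (0.054), without wild-type libraries 1 and 2 (0.199), without any 1 wild-type library (0.0768 to 0.097), and without hta9 hta11 library 2 (0.0955), 3 (0.0928) or 4 (0.123), all in edgeR. Leaving out 1 library gave 208 to 1246 (170 to 710 higher, 38 to 536 lower). DMT2 was the 1 methyltransferase relative that rose in DESeq2, with the length class as a block and without both libraries 1. Genes of RNA-directed methylation that rose numbered 1 in DESeq2 (AT1G05490) and 2 with the length class as a block (AT1G05490 and NRPE1). Leaving out 1 library gave 0 to 1 for both lists. QQS was the 1 methylation-controlled transcript that fell without hta9 hta11 libraries 1 and 3, which were the mutant libraries with the most QQS. Floral markers that rose numbered 2 with the stricter filter, which tests fewer of them, 0 without wild-type libraries 1 and 2, and 2 to 4 with 1 library left out. Where not given here, the cause was not tested. Transposable-element genes as a class were not run, because the annotation used gives no such class. DML3, DMT2, AT1G05490 and the floral markers are limited by depth.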

Other observations

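Immediate neighbours of 2 of the genes described appeared among the closest patterns, a choice that sets the direction of their fold changes. AT5G49170, which lies 69 bases from MET1 on the opposite strand (chr5:19938540-19939797), was among the 5 genes closest to DML3 over the 8 libraries, with a log2 fold change of 0.51 (adjusted p = 0.0503 in edgeR), while MET1 itself was at -0.02. MSH3, close in pattern to ROS1, overlaps FWA by 10 bases on the opposite strand. CRK21, picked in the same way, was the 1 gene of the 5 closest to ROS1 that passed (0.54 on the log2 scale, adjusted p = 0.0467 in edgeR). Over all genes the median log2 fold change was -0.04, -0.03, -0.01 and 0.04 in 4 classes of increasing exon length.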
